A study of Homo sapiens with 2 samples.

Results

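Messenger RNA of 9 complement genes was measured after a small interfering RNA (siRNA) against IFITM1 in HT-29, an established line of human colorectal adenocarcinoma cells. The genes were the secreted activators C3 and CFB, the secreted inhibitors C4BPA, C4BPB and CFI, the membrane inhibitors CD46, CD55 and CD59, and the C1r-like protease gene C1RL. They were taken by name from 19775 genes on the array, with every probe set annotated to that gene alone, which gave 20 of 54675 probe sets. The set was chosen by the log2 ratios of siIFITM1 over siLuc on these same arrays, so its ratios are a description and carry no test.

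There were 2 samples, and both were transfected HT-29 cells harvested 72 h later. The baseline was given an siRNA (siLuc) whose target, firefly luciferase, human cells lack, and the other sample an siRNA against the interferon-induced membrane protein IFITM1 (siIFITM1). Each was read on 1 array, so the spread between replicates is unknown and no p-value is given. All log2 ratios below are siIFITM1 over siLuc, on deposited MAS5 signals, which are linear intensities summarised per probe set. In RNA from whole cultures, fewer cells that make a transcript and less transcript per cell cannot be told apart.

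Complement is a cascade of plasma and tissue proteins that coats targets with C3b and can end in a pore through the target's membrane. C3 and factor B form the alternative-pathway convertase, the enzyme that amplifies C3 cleavage. C4b-binding protein and factor I shut convertases down in the fluid phase, while CD46, CD55 and CD59 protect the cell's own surface. Liver is the main source of the plasma proteins, and intestinal epithelium also makes several of them.

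C4BPA and C4BPB lie side by side and were higher together, while CFB was lower. C1RL, whose stretch is not shown, was lower still (log2 ratio -0.98 against -0.90 for CFB). The stretches before the start sites of C4BPA, C4BPB and CFB are shown first. Each is the 250 bases before the first start in the RefSeq promoter table (build GRCh38.p14), read 5′ to 3′ on the plus strand, at chr1:207103983-207104232 for C4BPA, chr1:207088610-207088859 for C4BPB and chr6:31945845-31946094 for CFB. Capitals mark letters that match any of 6 short motifs given below.
C4BPA: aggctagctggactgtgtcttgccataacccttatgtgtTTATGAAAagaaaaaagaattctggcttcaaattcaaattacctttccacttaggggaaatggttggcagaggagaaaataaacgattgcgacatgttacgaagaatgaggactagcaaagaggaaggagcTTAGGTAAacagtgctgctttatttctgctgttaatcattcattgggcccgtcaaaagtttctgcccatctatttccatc
C4BPB: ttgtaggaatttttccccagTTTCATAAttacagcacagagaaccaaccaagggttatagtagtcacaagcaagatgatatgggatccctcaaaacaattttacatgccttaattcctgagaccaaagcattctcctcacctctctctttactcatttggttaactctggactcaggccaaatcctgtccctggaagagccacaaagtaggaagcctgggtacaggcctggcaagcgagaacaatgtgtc
CFB: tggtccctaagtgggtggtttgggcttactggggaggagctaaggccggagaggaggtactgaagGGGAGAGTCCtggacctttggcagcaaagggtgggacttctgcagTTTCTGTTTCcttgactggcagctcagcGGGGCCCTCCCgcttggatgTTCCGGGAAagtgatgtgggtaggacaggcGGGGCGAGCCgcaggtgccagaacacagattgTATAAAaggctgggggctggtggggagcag

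A signal filter was set at 57.4, the median over non-control probe sets of the geometric mean signal on the 2 arrays (the mean of the log2 signals), and 12225 genes passed it at their brightest probe set. Of the 9 complement genes 7 passed, each with both arrays above 57.4, and C3 and CFI did not. Genes with a geometric mean of at least 393 are called brighter and the other genes past the filter dimmer. Probe sets of a shared gene differed in log2 ratio with an SD of 0.193 in the brighter and 0.496 in the dimmer class, and this SD is given as a measure of probe error. It covers differences between probes on these arrays and not differences between cultures.

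The labelled knockdown was visible in its target, with IFITM1 at 640 after siLuc and 237 after siIFITM1, 37.1% of the baseline. Median signals were 63.9 and 59.7 on the 2 arrays, and the 18 hybridisation control probe sets had log2 ratios of -0.13 to 0.05. Of 12 colon epithelial markers 9 were brighter genes, among them EPCAM, KRT8, KRT18 and LGALS4, while CDX1, CDX2 and GPA33 lay below the filter. Of 7 hepatocyte markers only the apolipoprotein gene APOH was a brighter gene (5680 and 4959). The hepatocyte gene ALB, which encodes albumin, read 49.5 and 25.6. Of 16 leukocyte, fibroblast and endothelial markers 8 passed the filter and 0 were brighter genes, and 1 was at least 2-fold apart, the fibroblast gene LUM (132 and 386).

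Among the 7 complement genes past the filter, 4 were higher and 3 lower with siIFITM1, with a median log2 ratio of 0.29. Over all genes past the filter 52.6% were lower and the median was -0.02. At least 2-fold apart were 2 of the 7, both higher, C4BPA and C4BPB. Over all genes past the filter 3.03% were at least 2-fold apart, with 1.01% higher and 2.01% lower. At 1.5-fold 4 of the 7 were apart, with CFB and C1RL added on the lower side, against 11.5% of all genes. Since these ratios were known when the genes were chosen, the counts are not read against those shares.

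**Figure D1:**
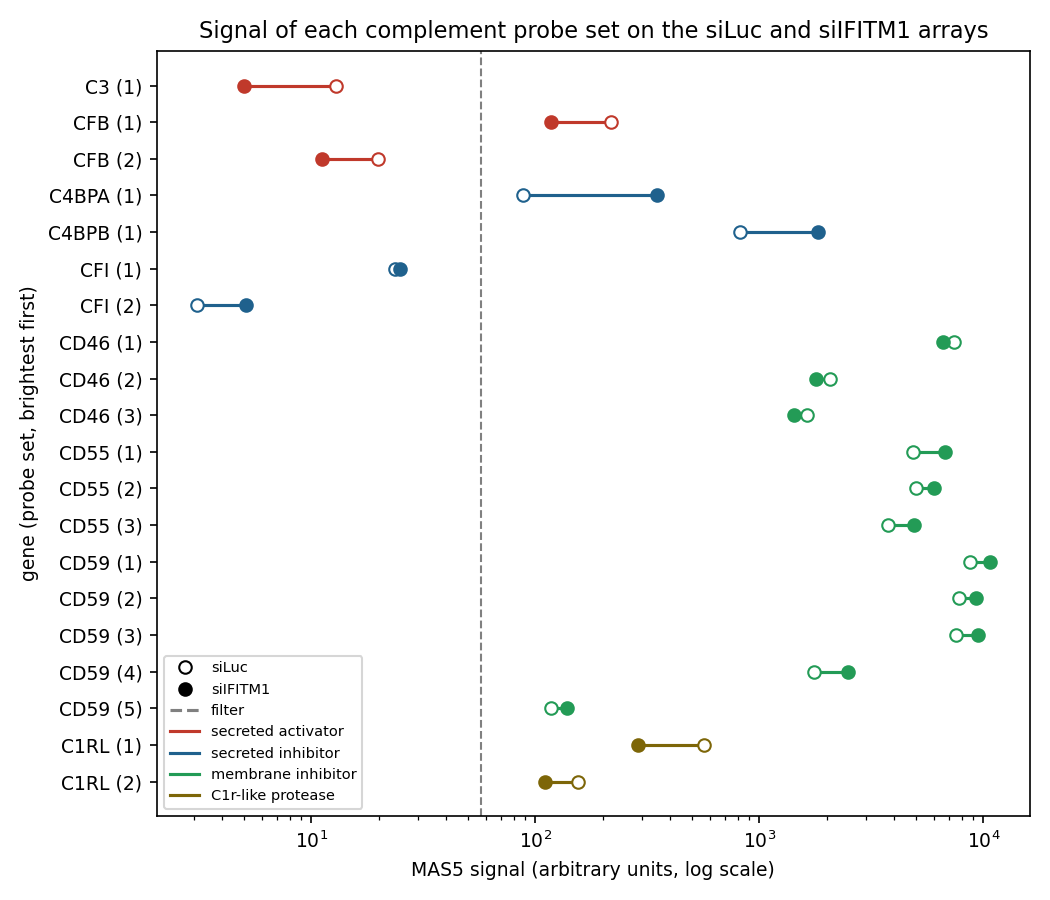
MAS5 signal (arbitrary units, log scale) of all 20 probe sets of the 9 genes, with open circles for siLuc, filled circles for siIFITM1, colours for the role of the protein and a dashed line at the filter of 57.4. C4BPA and C4BPB move to the right with siIFITM1, CFB and C1RL to the left, and C3 and CFI lie left of the filter on both arrays.

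C4b-binding protein, which holds C4b and serves as cofactor for its cleavage by factor I, is built from alpha chains, encoded by C4BPA, and a beta chain, encoded by C4BPB. C4BPA read 88.2 with siLuc and 349 with siIFITM1, 3.96-fold higher (log2 ratio 1.98). It has 1 probe set, and the siLuc value was not far above the filter. Of the 4432 dimmer genes 9, C4BPA included, had a ratio at least as high. The share of dimmer genes at least 2-fold higher was 2.48%.

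C4BPB went from 815 to 1833, 2.25-fold higher (log2 ratio 1.17). In the brighter class 5 of 7793 genes, C4BPB included, were at least as high, and 0.18% were at least 2-fold higher. Each chain rests on 1 probe set and cannot be checked against another, and the ending of the C4BPB probe set ID marks it as sharing probes with other transcripts.

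Factor I is the protease that cuts C3b and C4b with the help of cofactors such as C4b-binding protein and CD46. Its gene CFI had no probe set past the filter. The CFI probe sets read 23.7 and 24.9 at the brighter and 3.07 and 5.09 at the dimmer, all below the filter. No direction is drawn from them.

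Factor B, the serine protease of the alternative-pathway convertase, had the opposite sign to C4b-binding protein. The brighter CFB probe set went from 218 to 117, 53.7% of the baseline (log2 ratio -0.90). As for C4BPB, the ending of its ID marks it as sharing probes with other transcripts. The dimmer, below the filter, went from 19.8 to 11.1 (log2 ratio -0.83). Of the 4432 dimmer genes 319, CFB included, were at least as low, and 5.39% were at least 2-fold lower.

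C3, the central component whose cleavage all activation routes share, read 12.8 with siLuc and 5.02 with siIFITM1. Both values are far below the filter, where probe sets of a shared gene had an SD of 1.66 in their log2 ratios. C3 has 1 probe set, and no direction is drawn from its lower value. The filter does not show whether the C3 transcript was present. Set against each other as classes, the secreted activators minus the secreted inhibitors differed by -2.29 in median log2 ratio when all 5 genes were counted. With C3 and CFI left out, CFB at -0.90 against a median of 1.58 for the C4BP chains gave -2.47. The contrast between activators and inhibitors thus rests on CFB against the C4b-binding protein genes.

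**Figure D2:**
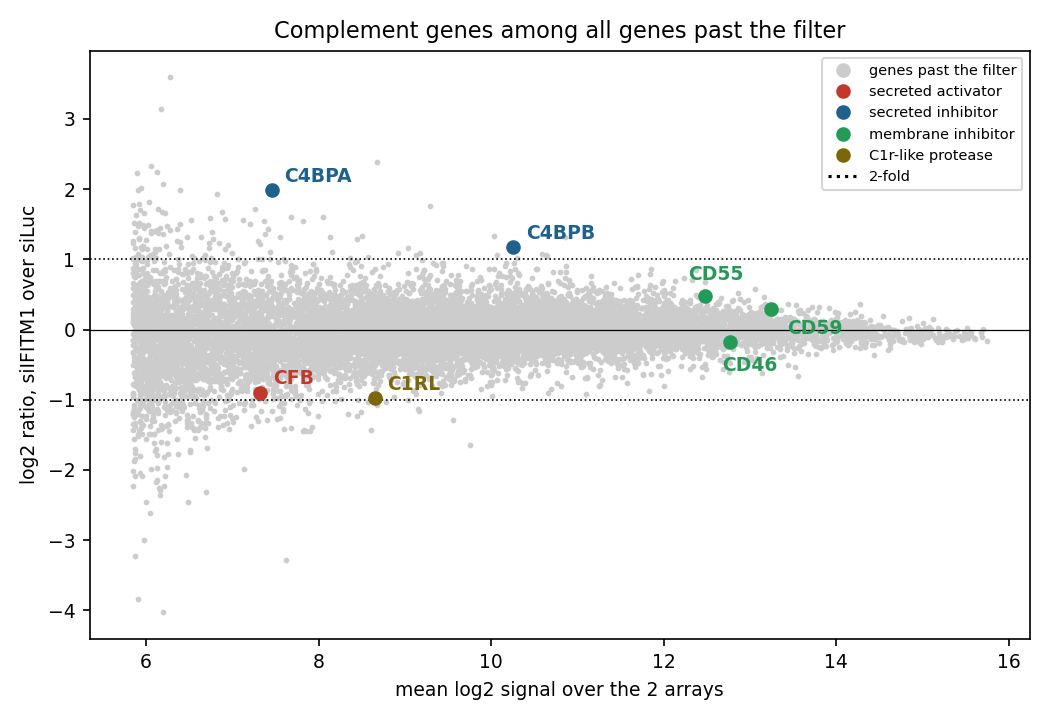
Log2 ratio of siIFITM1 over siLuc against the mean log2 signal over the 2 arrays, for 12225 genes past the filter (grey) and the 7 complement genes among them (coloured by role), with dotted lines at 2-fold. C4BPA and C4BPB lie above the upper line, and CFB at -0.90 and C1RL at -0.98 lie just inside the lower line. The membrane inhibitors lie between CD46 at -0.17 and CD55 at 0.47.

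The membrane inhibitors were less than 2-fold apart at every probe set. CD55, also called decay-accelerating factor because it pulls convertases apart, was higher at each of its 3 probe sets. Its brightest probe set went from 4852 to 6729 (log2 ratio 0.47), the next from 5010 to 6041 (0.27) and the dimmest from 3744 to 4876 (0.38). These 3 ratios had an SD of 0.10. Of the 7793 brighter genes 292 (3.75%), CD55 included, were at least as high.

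CD59, which blocks assembly of the membrane attack pore, was higher at each of its 5 probe sets. The brightest went from 8738 to 10705 (log2 ratio 0.29), and the ratios ran from 0.24 to 0.50. The 0.24 came from the dimmest probe set, which went from 117 to 139, within the SD of 0.496 for such probe sets. The 0.50 came from a probe set that went from 1750 to 2474. Every probe set was higher in 6.75% of the 459 genes with 5 or more probe sets past the filter.

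CD46, the membrane cofactor for cleavage of C3b and C4b, was lower at each of its 3 probe sets, from 7404 to 6572 at the brightest, 2064 to 1789 at the next and 1633 to 1422 at the dimmest. Its log2 ratios of -0.17, -0.21 and -0.20 lay close together (SD 0.018), but their size was about that of the SD of 0.193 for the brighter class. Among 2797 genes with 3 or more probe sets past the filter, every probe set was lower in 17.3% and every probe set was higher in 17.2%. A common sign of the kind seen in CD46 and CD55 is therefore frequent on these arrays. At the brightest probe set CD55 was at 0.47, CD59 at 0.29 and CD46 at -0.17. With 1 array per siRNA, a difference in direction between these surface inhibitors was not tested.

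C1RL encodes a serine protease related in sequence to C1r of the classical pathway. Its brighter probe set went from 565 to 287 (log2 ratio -0.98), and the dimmer from 155 to 111 (-0.49). Both were lower, by unequal amounts. Of the 7793 brighter genes 9, C1RL included, were at least as low, and 0.0898% were at least 2-fold lower. The dimmer probe set was within the SD of 0.496 for its class. The neighbouring antisense gene C1RL-AS1 read 35.0 and 90.2, a geometric mean below the filter.

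C4BPB, C4BPA, CD55 and CD46 belong to a cluster of complement regulator genes on chromosome 1. In the order of the RefSeq table, the measured genes from PIGR to CD46 were PIGR, FCAMR, C1orf116, PFKFB2, YOD1, C4BPB, C4BPA, CD55, CR2, CR1, CR1L and CD46. The measured gene before C4BPB, the deubiquitinase gene YOD1, was also higher, from 663 to 1663 at its brighter probe set (log2 ratio 1.33) and by 0.52 at the other. PFKFB2 was at 0.26 at its brightest probe set (466 and 560). Its other 2 probe sets past the filter were at 1.11 (91.9 and 199) and 0.52, and the last, below the filter, at -0.72. The 3 probe sets of C1orf116 ran from -0.11 to 0.25, and PIGR, the polymeric immunoglobulin receptor gene, went from 199 to 143 (-0.48). FCAMR, CR2 and CR1L lay below the filter.

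YOD1, C4BPB and C4BPA were the only 3 genes in a row on any chromosome, among genes past the filter, with a log2 ratio of at least 1 each at their brightest probe set. They were 1 of 12158 possible runs of 3 (0.00823%), and 1 other run had all 3 genes at least 2-fold lower. C4BPA and C4BPB were chosen by these same ratios, and the count was made after the ratios of all 3 had been seen. It is a description and is not read as a measure of rarity. The run also holds at the brightest probe set only, since YOD1 was at 0.52 at its other probe set. The complement genes further along the cluster did not continue the run, with CD55 at 0.47, CR1 at -0.47 and CD46 at -0.17. The CR1 value comes from its only probe set past the filter.

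**Figure D3:**
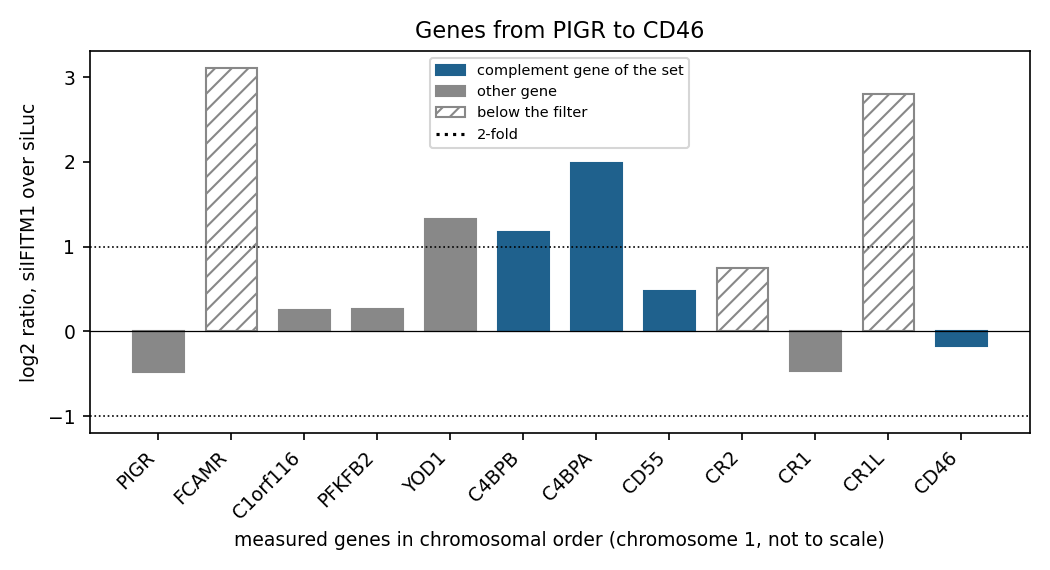
Log2 ratio of siIFITM1 over siLuc for the 12 measured genes from PIGR to CD46 on chromosome 1, in chromosomal order and not to scale, with genes of the complement set in blue, other genes in grey, genes below the filter hatched and dotted lines at 2-fold. YOD1, C4BPB and C4BPA stand together above the upper line, and the hatched bars are ratios of signals with a geometric mean below the filter.

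CFB lies close to C2, the classical-pathway protease gene, on chromosome 6, with ZBTB12 listed between them in the RefSeq order. C2 read 33.4 and 70.3, a geometric mean below the filter. Of the 10 measured genes nearest to CFB (5 on each side), 9 passed the filter. At their brightest probe set 8 of these were lower, and the median log2 ratio was -0.24. Over all genes past the filter 52.6% were lower. The brighter genes among the neighbours were SKIC2, from 739 to 549 (-0.43), SLC44A4 (-0.29), WHR1 (-0.24), DXO (-0.21), NEU1 (-0.19) and EHMT2 (0.06). Further probe sets, past the filter or not, had the opposite sign for TNXB (up to 0.87), DXO (up to 0.27), ATF6B (up to 0.14) and EHMT2 (down to -2.81). CFB at -0.90 was lower than 8 of the 9. The exception was TNXB, at -1.03, which had a signal of 113 with siLuc and of 55.6, under the filter, with siIFITM1. ZBTB12 also went under the filter value, from 76.3 to 52.3 (-0.55). Around C1RL 6 of 10 neighbours passed, between -0.18 and 0.35, and C1R and C1S, the classical-pathway proteases beside it, did not.

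Motifs were searched as exact letters on both strands of the 250 bases before the first start, for the 8 genes with an entry, all but C3. The letters were TTCNNNGAA for STAT factors, GAAA and GAAA with any 2 letters between for the interferon-stimulated response element (ISRE), TTNNGNAA for C/EBP factors, GGG and CC with any 5 letters between for NF-kB, TGANTCA for AP-1 and TATAAA for the TATA box. These hold in 6.56%, 3.02%, 33.2%, 54.4%, 6.59% and 10.8% of 34943 promoter windows of the same length, in that order. Matches of different motifs may overlap, and those for NF-kB and C/EBP are loose enough to be frequent anywhere. A match is a run of letters, not a measured binding site.

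The CFB stretch held STAT letters at -92 to -84 from the start, ISRE letters at -140 to -131 on the minus strand, TATAAA at -30 to -25, and 4 NF-kB matches, of which 2 overlap. The C4BPA stretch held 2 C/EBP matches, at -211 to -204 and -80 to -73, and the C4BPB stretch 1, at -230 to -223 on the minus strand. The first C4BPA match and the C4BPB match have the same letters, TTATGAAA, on opposite strands. C4BPA and C4BPB had no match to the other 5 motifs in these windows. CFB alone of the 8 held the ISRE and TATA letters. C/EBP letters were also found for CFI (2 matches) and C1RL (1), NF-kB letters for CD46 (3) and CD55 (1), STAT letters for CD59 and C1RL, and AP-1 letters for C1RL.

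The rest of the complement system was taken from a list of 51 other genes, 44 of which had a probe set of their own. Only 9 of the 44 passed the filter. Most components, among them C1QA, C1QB, C1QC, C1R, C1S, C2, C5 to C9 and the properdin gene CFP, lay below it. The filter is a median of signal over probe sets and does not show that a transcript is absent. Of the genes below the filter, C1R, C2 and C5AR2 were above 57.4 with siIFITM1 only, and C5, FCN1, ITGAX and CSMD1 with siLuc only. Of the 9, 3 were higher and 6 lower, with a median log2 ratio of -0.07. At least 2-fold apart was 1 of 9, CFHR2, a dimmer gene on the lower side. Over all genes past the filter 52.6% were lower and 3.03% were at least 2-fold apart. Of the dimmer genes 5.39% were at least 2-fold lower.

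CFHR2, a factor H-related gene, had a log2 ratio of -1.40 from signals of 118 and 44.8. The siIFITM1 signal was under the filter, and the only CFHR2 probe set carries an ending that marks probes shared between transcripts. CFD, which encodes factor D, the protease that cleaves factor B, went from 338 to 440 (0.38). CLU, the gene of the terminal-pathway inhibitor clusterin, went from 193 to 267 (0.46) at its brightest probe set. Its other 2 probe sets past the filter had ratios of -0.14 and 0.14. PROS1 encodes protein S, which circulates bound to the beta chain of C4b-binding protein, and went from 1044 to 997 (-0.07). The log2 ratio of this partner was nearer to 0 than the 1.17 of C4BPB. C1QBP, the gene of a mitochondrial protein that can bind C1q, went from 12816 to 12271 (-0.06).

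The other 4 were dimmer genes. MASP2, a protease of the lectin pathway, went from 77.6 to 103 (0.41) and the lectin-pathway gene FCN2 from 82.1 to 66.4 (-0.31). The receptor genes CR1, from 93.2 to 67.5 (-0.47), and ITGAM, from 85.3 to 69.4 (-0.30), were lower. All 4 of these ratios were smaller than the SD of 0.496 for the dimmer class. Each gene has 1 probe set past the filter. With those below it included, ratios ran from -2.08 to 1.40 for CR1 and -2.31 to -0.30 for ITGAM. They ran from -1.04 to 0.41 for MASP2 and -0.81 to 1.39 for FCN2.

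**Figure D4:**
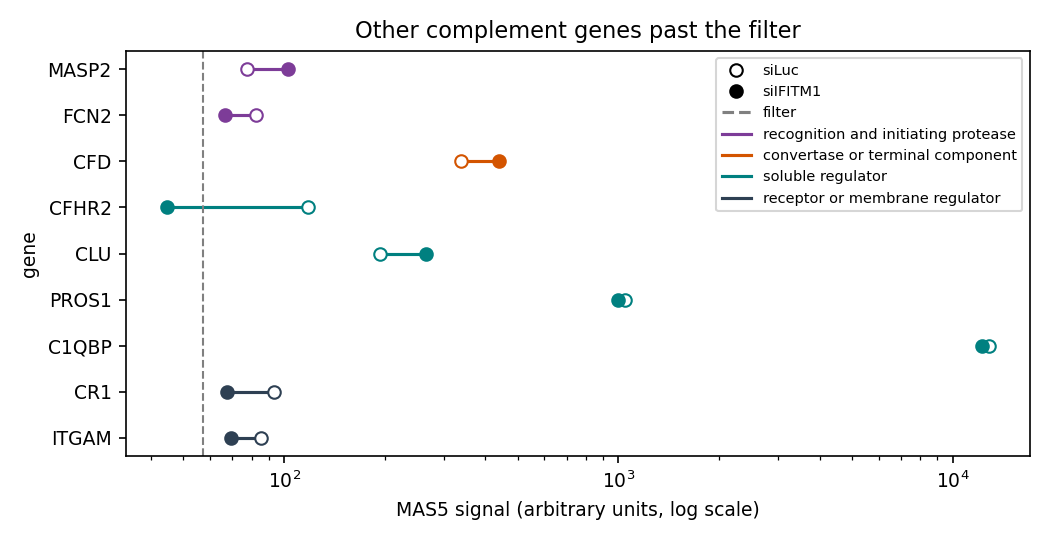
MAS5 signal (arbitrary units, log scale) of the 9 other complement genes past the filter at their brightest probe set, with open circles for siLuc, filled circles for siIFITM1, colours for the role and a dashed line at the filter of 57.4. CFHR2 has the widest gap, from 118 to 44.8, and PROS1 and C1QBP barely move.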

How the data were processed

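Per the labels' protocols, total RNA was purified on columns, amplified and turned into biotin-labelled cRNA, and each sample was hybridised to 1 single-colour array. The deposited values are intensities, made with MAS5 per the submitters' processing notes (version not given). The 2% trimmed mean was 500.1 on both arrays, so the authors' values were used with no further scaling.

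Probe sets that name 1 gene (41091 of 54613 that are not controls) were used, and Entrez identifiers were matched to current symbols in a RefSeq table of GRCh38.p14 (41037 matched). The probe set with the highest mean log2 signal represents a gene. With 1 array per siRNA nothing was tested, and ratios are described by size. Arrays limit the precision by their number. The ratio calculation was tested on simulated data.

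The genes, lists and alternatives were chosen with earlier results of these data known. All 9 genes are named. Other complement genes past the filter are all given, and neighbours are the 5 nearest measured genes on each side and the span from PIGR to CD46. Software was Python 3.11.15, pandas 2.3.3, numpy 2.4.6 and statsmodels 0.14.6.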

Additional observations from a re-analysis of the deposited data

How the results depend on the processing

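Alternatives were median centring, quantile normalization, subtraction of a loess trend (span 0.3), a pseudocount of 32, raising signals to the filter, the mean over probe sets, and omission of the probe sets with _x_at or _s_at endings, which mark shared probes. The 7 genes past the filter kept their sign in each that gave a value. A pseudocount or raising signals to the filter cannot reverse a sign, and every alternative uses the same 2 arrays. The ranges were 1.66 to 2.04 for C4BPA, 1.14 to 1.20 for C4BPB and -0.90 to -0.75 for CFB. Without shared-probe endings CFB (-0.83) was represented by its probe set below the filter. C1RL moved to -0.73 with the mean over its 2 probe sets, and CD59 to 0.50 without shared-probe endings, where another probe set represents it. That omission leaves no probe set for C4BPB and CD46. The count of 2 genes at least 2-fold apart was 1 in that omission, 1 with a filter at the 75th percentile, 4 at 1.5-fold and 1 at 3-fold. It was 3 with no filter, where C3 is added. The activator-inhibitor difference of -2.29 was -1.51 with membrane inhibitors included, -1.65 with the pseudocount and -1.62 with signals raised to the filter. The value over genes past the filter was added after seeing the data. The median of the other complement genes, -0.07, was 0.056 without shared-probe endings, over 4 genes. Scalings moved the median of all genes by at most 0.034. No paired analysis was possible because each siRNA has 1 array. No replicate could be left out for the same reason.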

Other observations

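Probe sets that name several genes entered none of the values above. The probe set annotated to C4A, C4B and C4B_2, the genes of complement component C4, went from 88.7 to 98.3 (log2 ratio 0.15). It was the only such probe set with a complement gene that passed the filter, out of 6.

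C1R read 7.14 with siLuc and 78.2 with siIFITM1, and C2 read 33.4 and 70.3. Each was above the filter value of 57.4 on the siIFITM1 array only, and both have a geometric mean below it, so no fold is given. Among the other complement genes below the filter, C5AR2 was also above 57.4 on the siIFITM1 array only. The reverse held for C5, FCN1, ITGAX and CSMD1, which were above it on the siLuc array only, so no direction is drawn. C1R and C2 were picked out after their values were seen.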
